A study of Caenorhabditis elegans with 2 samples.

Results

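The 10 genes described here are the microRNAs lin-4, let-7, mir-48, mir-241 and mir-84 and 5 protein-coding genes of microRNA silencing and developmental timing, alg-1, alg-2, ain-1, ain-2 and puf-9, of 46890 genes in the annotation of the nematode Caenorhabditis elegans. For each gene, every interval of 4 deposited ChIP-seq lists was taken whose summit (the position of highest enrichment) lay inside the gene or within 5 kb of either end. ChIP-seq, chromatin immunoprecipitation followed by sequencing, recovers the DNA that a chosen protein is attached to. The protein was CEH-16, fused to eGFP and carried as the transgene wgIs82 in strain OP82, whose background is unc-119(tm4063) III; the labels give ceh-16 as the antibody's target. The single group was whole L2 larvae of both sexes, with 2 biological replicates and an unknown age within the stage. There was no untagged strain, mutant, second stage or second factor among the samples, so the comparisons are between genes, between peaks and between the replicates. Whole animals were used, so the values are sums over all tissues, and peaks of a few cells cannot be told apart from weak peaks of many.

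CEH-16 is the engrailed-class homeodomain transcription factor of the worm and is known for its roles in the seam cells, the lateral epidermal stem cells that divide at each larval stage. The heterochronic pathway sets which division pattern these cells use at which stage. In it, lin-4 lowers the products of lin-14 and lin-28 in early larvae, the let-7 relatives mir-48, mir-241 and mir-84 act on hbl-1 around the L2 stage, and let-7 acts later on lin-41. A microRNA does this as the guide of an Argonaute protein, ALG-1 or ALG-2, which is joined by a GW182-type protein, AIN-1 or AIN-2, that brings in the machinery of mRNA repression and decay. PUF-9 is a Pumilio-family RNA-binding protein that represses hbl-1 in the epidermis.

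The mature microRNAs are shown because they define the families that the genes are grouped by. They were read from the RefSeq annotation and genome (WBcel235), and the capitals mark the seed, bases 2 to 8, which pairs with the target mRNA.
lin-4: uCCCUGAGaccucaaguguga
let-7: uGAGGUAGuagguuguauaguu
mir-48: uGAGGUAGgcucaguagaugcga
mir-241: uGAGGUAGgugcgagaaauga
mir-84: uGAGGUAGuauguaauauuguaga
The seed was the same in let-7, mir-48, mir-241 and mir-84, and lin-4 had another. Counted without gaps from the 5′ end, mir-84 shared 17 of 22 bases with let-7, mir-241 shared 12 of 21 and mir-48 shared 9 of 22. The microRNA closest to let-7 in sequence, mir-84, was the only one of the 5 with no peak in the thresholded list described next.

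The deposited lists were an optimal list thresholded by the irreproducible discovery rate (IDR, a comparison of peak ranks between replicates) with 1358 peaks, and relaxed lists of peaks and background for the pooled data (30000 intervals), replicate 1 (28214) and replicate 2 (30000). A peak of the IDR list need not be found in each replicate. Of the 1358, 13 overlapped no replicate 1 interval and 8 no replicate 2 interval. Signal is the enrichment that the authors' peak caller wrote for each interval, on the caller's own scale. Whether the lists share a scale is not given in the sources used here. Signal was 23.2 to 190.0 in the IDR list, with a median of 33.5. The medians of the relaxed lists were 6.05 pooled, 3.79 in replicate 1 and 3.50 in replicate 2. An interval is called top here when it is among the 1358 of highest signal in its list, which meant at least 25.1 pooled, 13.6 in replicate 1 and 13.3 in replicate 2. No file gives read counts, so depth is unknown and no error can be put on a single signal. The replicate values are given side by side in its place.

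An IDR summit lay in the window of 7 of the 10 genes: lin-4, let-7, mir-48, mir-241, alg-1, ain-1 and puf-9. The windows held 8 different IDR peaks, because alg-1 and ain-1 had 2 each and mir-48 and mir-241 shared 1. By class, 4 of 5 microRNAs had one, against 22.6% of all 261 miRNA genes. Of the protein-coding members, 3 of 5 had one, against 14.4% of all 19973 protein-coding genes and 17.9% of the 3606 whose length is within the range of these 5. With the top intervals of a single replicate in place of the IDR list, 4 genes were left from replicate 2 alone (let-7, alg-1, ain-1 and puf-9) and 7 from replicate 1 alone. Only at alg-1 and ain-1 was the member's own 5′ end the nearest of any annotated gene to a summit. The peaks of highest IDR signal at 4 loci are printed here, on the plus strand of ce11 (WBcel235), because the results on sequence turn on them. The capitals mark GAGAGA and TCTCTC, the same letters read on either strand.
puf-9 peak, X:5841109-5841404: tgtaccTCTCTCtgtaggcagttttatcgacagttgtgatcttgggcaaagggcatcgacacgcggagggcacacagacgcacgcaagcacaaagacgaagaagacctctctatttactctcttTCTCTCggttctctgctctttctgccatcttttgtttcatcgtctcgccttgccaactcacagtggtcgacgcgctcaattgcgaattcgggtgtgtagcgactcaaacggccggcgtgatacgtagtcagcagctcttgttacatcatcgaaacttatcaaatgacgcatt
ain-1 nearer peak, X:16612594-16612889: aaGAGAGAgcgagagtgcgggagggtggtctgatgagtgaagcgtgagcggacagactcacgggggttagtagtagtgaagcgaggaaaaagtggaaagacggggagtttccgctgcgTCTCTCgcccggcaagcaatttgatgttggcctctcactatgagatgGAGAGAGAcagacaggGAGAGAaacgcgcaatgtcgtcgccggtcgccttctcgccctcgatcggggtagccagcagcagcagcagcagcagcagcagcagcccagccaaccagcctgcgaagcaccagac
let-7 peak, X:14747036-14747302: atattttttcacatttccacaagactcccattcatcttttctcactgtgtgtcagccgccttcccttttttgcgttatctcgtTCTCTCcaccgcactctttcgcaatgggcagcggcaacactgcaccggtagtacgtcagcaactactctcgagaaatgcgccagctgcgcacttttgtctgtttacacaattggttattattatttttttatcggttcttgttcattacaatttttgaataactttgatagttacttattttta
mir-48 and mir-241 peak, V:14368410-14368705: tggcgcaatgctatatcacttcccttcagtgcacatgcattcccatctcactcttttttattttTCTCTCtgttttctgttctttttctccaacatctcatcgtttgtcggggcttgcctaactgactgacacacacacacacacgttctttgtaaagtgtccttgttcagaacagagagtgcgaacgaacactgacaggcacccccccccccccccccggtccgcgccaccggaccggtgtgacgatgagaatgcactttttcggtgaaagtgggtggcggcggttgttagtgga
The let-7 peak is printed without its last 29 bases, which the annotation gives to the UTR of the neighbouring gene wshc-2.

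**Figure D1:**
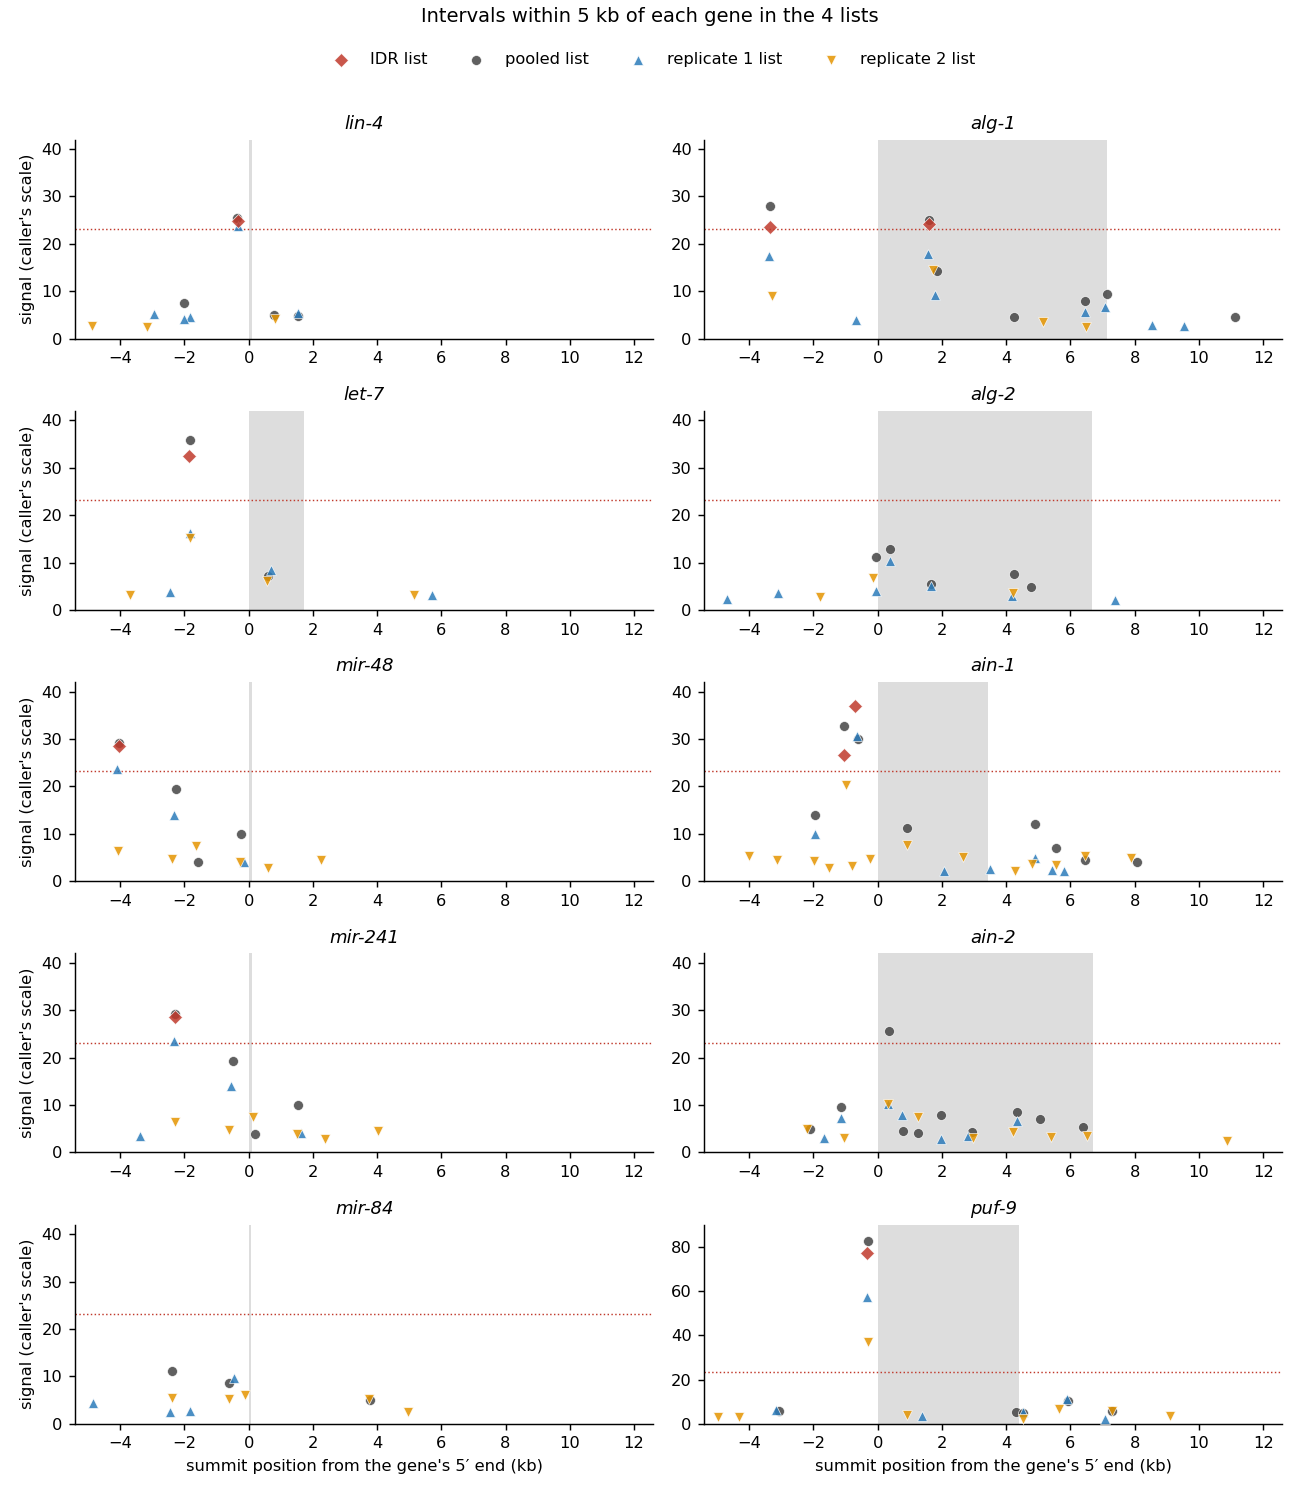
Signal of every interval (vertical axis, the caller's scale) against the position of its summit from the 5′ end of the gene in kb (horizontal axis, negative upstream) for the 10 genes. Grey marks the gene and the dotted line the lowest IDR signal, 23.2. The puf-9 panel has a longer vertical axis. The IDR peaks lie upstream of the genes, except 1 of the 2 at alg-1. The dotted line applies to the IDR points only, since it is not known whether the lists share a scale.

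The lin-4 gene (WBGene00002993, II:5902254-5902347, plus strand) had 1 IDR peak, at II:5901781-5902076, with its summit 325 bp upstream of the annotated precursor. Its IDR signal was 24.8, rank 1200 of 1358. The matching interval had a signal of 23.8 in replicate 1, rank 448. No interval of replicate 2 overlapped the peak, and the highest replicate 2 signal anywhere in the window was 4.05, at 724 bp downstream. The lin-4 peak thus rested on replicate 1, and was 1 of 8 IDR peaks in the whole list with no replicate 2 interval. The summit lay in an intron of the protein-coding gene F59G1.4, which contains lin-4, and in an exon of the annotated ncRNA F59G1.12. The nearest 5′ end of a protein-coding transcript was that of F59G1.4, 1552 bp away.

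The let-7 gene (WBGene00002285, X:14743590-14745321, minus strand; the annotated span is longer than the hairpin) had 1 IDR peak with its summit 1863 bp upstream and a signal of 32.4, rank 733. The replicates were alike at this peak, with 16.2 in replicate 1 (rank 970) and 15.1 in replicate 2 (rank 1080), and both intervals were top. The same summit was 119 bp upstream of the 5′ end of wshc-2, which runs the other way, so the peak lay between let-7 and wshc-2 and closer to wshc-2. A second, weaker place lay inside the annotated let-7 gene, at signals of 7.20 pooled, 8.51 in replicate 1 and 6.18 in replicate 2, and was not in the IDR list.

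The mir-48 gene (WBGene00003039, V:14364412-14364509) and the mir-241 gene (WBGene00003335, V:14366188-14366283) lie 1.68 kb apart on the minus strand. They shared 1 IDR peak, with a summit 2275 bp upstream of mir-241 and 4049 bp upstream of mir-48 and a signal of 28.5, rank 951. The signal was 23.6 in replicate 1 (rank 457) and 6.46 in replicate 2 (rank 4655), a ratio of 3.64. It was top in replicate 1 and not in replicate 2. The peak was intergenic, 985 bp upstream of the ncRNA F56A12.10 and 4516 bp upstream of unc-39, the nearest protein-coding gene. A second place 495 bp upstream of mir-241 had a pooled signal of 19.4. It ranked 1295 in replicate 1, where it was top, and 8395 in replicate 2, with a signal of 4.77 there, and it was not in the IDR list. Replicate 2 had its highest signal in both windows at neither place, but 31 bp downstream of mir-241, at 7.40 (rank 3616). Of all IDR summits in the windows, the shared one was the nearest to the 5 kb limit from inside, through its distance of 4049 bp to mir-48. The first one outside the limit at these genes was 8.46 kb downstream of mir-48, with a signal of 29.2.

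The mir-84 gene (WBGene00003312, X:16022404-16022478, minus strand) had no IDR summit within 34.1 kb. Its highest signals were 11.2 pooled at 2381 bp upstream, 9.75 in replicate 1 at 455 bp upstream and 6.06 in replicate 2 at 107 bp upstream. The 3 lists thus put their highest interval at different positions. The pooled value equalled the median of all 261 miRNA genes, 11.2, and 49.4% of them were below it. Among miRNA genes, by contrast, 88.9% had a lower highest pooled signal than let-7, 84.3% than mir-48 and mir-241, and 78.9% than lin-4. In replicate 2 alone these shares were 85.1% for let-7, 58.2% for mir-48 and mir-241, 51.0% for mir-84 and 26.4% for lin-4. The share for mir-48 and mir-241 rested on the interval just downstream of mir-241 and not on their shared IDR peak. In replicate 2 mir-84 stood above lin-4 and near mir-48 and mir-241, so the contrast held clearly only for let-7.

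Of the Argonaute genes, alg-1 had IDR peaks and alg-2 had none. The alg-1 gene (WBGene00000105, X:13949110-13956261, plus strand) had an IDR peak at X:13950572-13950867, inside the gene, in a region annotated as 5′ UTR and 542 bp upstream of an internal 5′ end of alg-1. Its signal was 24.1, rank 1263, with 17.8 in replicate 1 and 14.4 in replicate 2, both top. A second IDR peak at X:13945595-13945890 had its summit 3367 bp upstream of the gene, in exons of the overlapping ncRNAs K02B9.6 and K02B9.9, and a signal of 23.6, rank 1314. Its signal was 17.5 in replicate 1, which was top, and 8.90 in replicate 2, which was not. In the pooled list the order of the 2 peaks was reversed. The upstream one had 27.9 (rank 1110), which was top, and the internal one 25.0 (rank 1367), which was not. Both were among the weakest IDR peaks, within 1 unit of the lowest one. A stronger peak lay just outside the window, 7.67 kb upstream, with a signal of 41.2.

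The alg-2 gene (WBGene00000106, II:873212-879885, plus strand) had its nearest IDR summit 335 kb away. Its highest signals were 12.9 pooled and 10.4 in replicate 1, both 388 bp inside the gene, and 6.83 in replicate 2 at 161 bp upstream. No replicate 2 interval overlapped the strongest pooled one. Of all protein-coding genes, 66.2% had a lower highest pooled signal than alg-2, against 87.7% for alg-1, whose highest was at the upstream peak.

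Of the GW182-type genes, ain-1 had IDR peaks and ain-2 had none. The ain-1 gene (WBGene00015547, X:16613451-16616871, plus strand) had 2 IDR peaks upstream, separated by 44 bp, with summits 709 and 1049 bp from the gene. The nearer peak had an IDR signal of 36.9, rank 555, and a pooled signal of 30.1, rank 956. Its signal was 30.7 in replicate 1 (rank 233) and 3.22 in replicate 2 (rank 17150), a ratio of 9.53, and 99.6% of all IDR peaks with both values had a lower log2 ratio of replicate 1 to replicate 2. The farther peak, at X:16612254-16612549, had an IDR signal of 26.7, rank 1069, and a pooled signal of 32.7, rank 808. It had no interval in replicate 1 and a signal of 20.4 in replicate 2 (rank 561). The nearer peak was thus the higher one in the IDR list and in replicate 1, and the farther one in the pooled list and in replicate 2. Each ain-1 peak was thus top in 1 replicate only, and not the same one. The strongest ain-1 intervals of replicates 1 and 2 did not overlap, with summits 358 bp apart and a gap of 68 bp. Both IDR peaks were intergenic, with ain-1 as the gene of nearest 5′ end, and the top intervals lay 643 bp upstream in replicate 1 and 1001 bp upstream in replicate 2.

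The ain-2 gene (WBGene00015007) had no IDR summit within 39.3 kb, although its strongest pooled interval, with a signal of 25.7 and rank 1306, was top in the pooled list. The summit lay 336 bp inside the gene. At the same place, replicate 1 had 10.2 (rank 2271) and replicate 2 had 10.3 (rank 2071), with summits 8 bp apart. The replicates thus gave nearly equal values at nearly the same base, neither of them top. In the pooled list the ain-2 interval was slightly above the internal alg-1 peak, which had 25.0 and was in the IDR list. Of all protein-coding genes, 85.5% had a lower highest pooled signal than ain-2, against 90.8% for ain-1, so this pair was closer there than in the IDR list.

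The puf-9 gene (WBGene00004245, X:5841592-5845987, plus strand) had the strongest peak of the 10 genes. The IDR summit lay 335 bp upstream, with a signal of 77.0, rank 72 of 1358. The signal was 57.2 in replicate 1 (rank 32) and 37.1 in replicate 2 (rank 101), a ratio of 1.54, with summits 32 bp apart. The next signal in the puf-9 window was 10.5 pooled, 11.1 in replicate 1 and 6.75 in replicate 2, at 1245 to 1518 bp downstream. Of all protein-coding genes, 99.0% had a lower highest signal in the pooled list, 99.6% in replicate 1 and 98.6% in replicate 2. The summit fell in exons of the ncRNAs W06B11.7 and W06B11.9, and puf-9 had the nearest protein-coding 5′ end. On the same chromosome, hbl-1, the mRNA that PUF-9 represses, ends 13.8 kb before puf-9 begins, and the next IDR peak upstream of puf-9, 13.3 kb from it, with a signal of 47.0, lay 511 bp downstream of hbl-1.

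**Figure D2:**
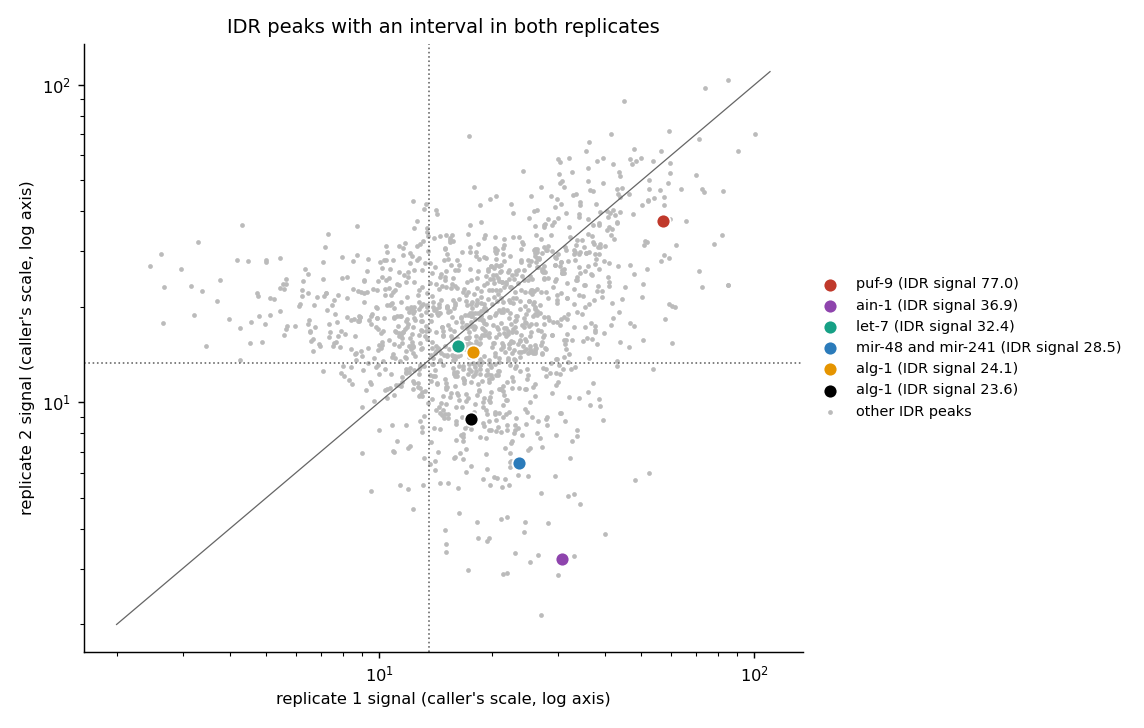
Signal in replicate 1 (horizontal, log axis) against replicate 2 (vertical, log axis), both on the caller's scale, for IDR peaks that overlapped an interval of both. The coloured points are 6 of the 8 peaks of the 10 genes; the lin-4 peak and the farther ain-1 peak lack 1 value. Dotted lines mark the lowest top interval of each replicate (13.6 and 13.3) and the diagonal marks equal signal, below which all 6 points lie.

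Across the 8 peaks, the replicate 1 signal was the higher one in all 6 with both values. The log2 ratio of replicate 1 to replicate 2 was 0.11 at let-7, 0.30 and 0.98 at alg-1, 0.62 at puf-9, 1.87 at mir-48 and mir-241 and 3.25 at the nearer ain-1 peak, with a median of 0.80. Over the 1337 IDR peaks with both values the median was 0.09, and the range from percentile 5 to percentile 95 was −1.58 to 1.72. The farther ain-1 peak went the other way, with no replicate 1 interval. Top in both replicates were 3 of the 8 peaks (let-7, puf-9 and the internal alg-1 peak), against 53.0% of all IDR peaks. Depth and ChIP quality of the libraries were not measured here, and their part in these differences was not tested.

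By gene, a top replicate 1 interval was found in the windows of 4 of 5 microRNAs, against 25.7% of miRNA genes, and 3 of 5 protein-coding members, against 14.2% of protein-coding genes. A top replicate 2 interval was found for 1 of 5 microRNAs (let-7), against 19.2% of miRNA genes, and 3 of 5 protein-coding members, against 15.2% of protein-coding genes. The protein-coding count was therefore the same in either replicate, while the microRNA count rested on replicate 1 for lin-4, mir-48 and mir-241. The members on autosomes were lin-4, mir-48, mir-241, alg-2 and ain-2. A top interval was found for 3 of these 5 in replicate 1, where mir-48 and mir-241 share theirs, and for 0 of 5 in replicate 2. Over all chromosomes the shares were 25.7% of miRNA and 14.2% of protein-coding genes in replicate 1. In replicate 2 they were 19.2% and 15.2%, and such shares do not set a count of 0 of 5 apart.

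The X chromosome carried 4 of the 7 genes with an IDR summit and 6 of the 8 peaks. On X, 4 of 5 members had one (let-7, alg-1, ain-1 and puf-9), against 28.4% of miRNA genes and 21.2% of protein-coding genes there. On the autosomes 3 of 5 had one, against 20.3% of miRNA genes and 13.4% of protein-coding genes. Those 3 were lin-4, mir-48 and mir-241, all microRNAs.

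**Figure D3:**
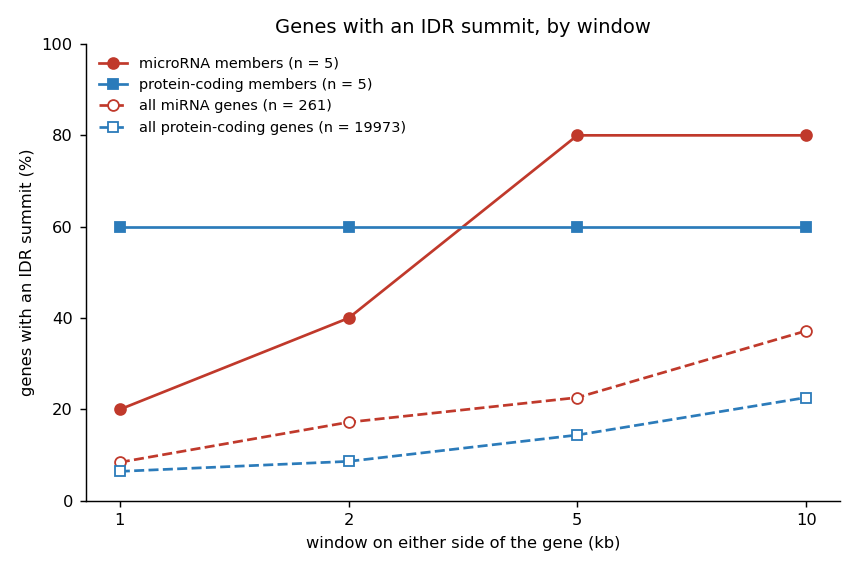
Share of genes with an IDR summit in the gene or within 1, 2, 5 or 10 kb of either end, for the 5 microRNAs and the 5 protein-coding members (filled points), and for all 261 miRNA genes and all 19973 protein-coding genes (open points). The microRNA line climbs between 1 and 5 kb, where the protein-coding line is level at 3 of 5. The lines of all miRNA genes (8.43% to 22.6%) and all protein-coding genes (6.44% to 14.4%) climb there too.

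Counts by window are given for the 2 classes, with 5 genes each and 1 peak shared by mir-48 and mir-241. Distances run from the annotated gene, which was 75 to 1732 bp long for the microRNAs and 3421 to 7152 bp for the protein-coding members. The summit at lin-4, at 325 bp, was as near as that at puf-9, at 335 bp. Within 1 kb, 3 of 5 protein-coding members had an IDR summit, against 6.44% of protein-coding genes, and 1 of 5 microRNAs (lin-4) had one, against 8.43% of miRNA genes. Within 2 kb the protein-coding count was the same, against 8.63% of protein-coding genes. There let-7 brought the microRNAs to 2 of 5, against 17.2% of miRNA genes. The mir-48 and mir-241 peak entered only with the 5 kb window. The background shares there were 14.4% for protein-coding and 22.6% for miRNA genes. At 10 kb no further member gained a summit, while the background shares were 22.6% for protein-coding and 37.2% for miRNA genes.

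In the relaxed lists, all 10 genes had intervals, as had 92.2% of protein-coding genes and 91.2% of miRNA genes in the pooled list, so the presence of a relaxed interval does not set these genes apart. The windows held 49 different pooled intervals, 52 of replicate 1 and 56 of replicate 2. A gene had 2 to 10 of them in the pooled list, 3 to 8 in replicate 1 and 3 to 14 in replicate 2, the most being at ain-2, alg-1 and ain-1. Per 10 kb of window the 10 genes had 4.06 pooled, 4.22 replicate 1 and 4.75 replicate 2 summits. Those shared by mir-48 and mir-241 were counted for each gene. The protein-coding members had 4.60, 4.47 and 4.85, against 3.03, 2.84 and 3.04 for all protein-coding genes. The microRNA members had 3.26, 3.84 and 4.61, against 3.60, 3.51 and 3.67 for all miRNA genes. In the pooled list the microRNA members were thus below their class. By list, 8 genes had a top interval in the pooled data, 7 in replicate 1 and 4 in replicate 2. A top pooled interval was found for 14.9% of all protein-coding and 21.8% of all miRNA genes, and the replicate shares are given above.

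The 8 peaks were also compared with the rest of the list by sequence. Homeodomain proteins are known to bind short AT-rich cores. The words searched for, on both strands, were TAATTA, which reads the same on either strand, and also the word TAATTG, which on the opposite strand is read as CAATTA. Such a core was found in 1 of 8, against 22.8% of all IDR peaks. That match was TAATTA in the let-7 peak, at X:14747316-14747321, 132 bp from the summit and within the bases not printed above. Within 100 bp of the summit no peak of the 10 genes held such a core, against 15.4% of all IDR peaks. The GC content of the 8 peaks was 38.9 to 59.5%, with a median of 51.9%, against a median of 42.6% over all IDR peaks and 37.5% over pooled intervals outside the IDR list. The let-7 peak, with the core, was the lowest of the 8 in GC content.

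GAGAGA or TCTCTC was in all 8 peaks, against 47.3% of IDR peaks and 21.9% of the 28562 pooled intervals outside the IDR list. This word was chosen after the sequences had been read, so the count is a description of them. The internal alg-1 peak held 6 matches and the nearer ain-1 peak 5, counting overlapping ones, the puf-9 and lin-4 peaks held 2 each, and the other 4 peaks held 1 each. Within 100 bp of the summit the word was in 7 of 8, against 40.8% of IDR peaks, and within 50 bp in 4 of 8, against 25.0%. Of the genes without an IDR peak, the strongest pooled interval held 4 matches at mir-84 and none at alg-2 and ain-2. A homeodomain core was found once in that interval at alg-2 and not at mir-84 or ain-2.

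**Figure D4:**
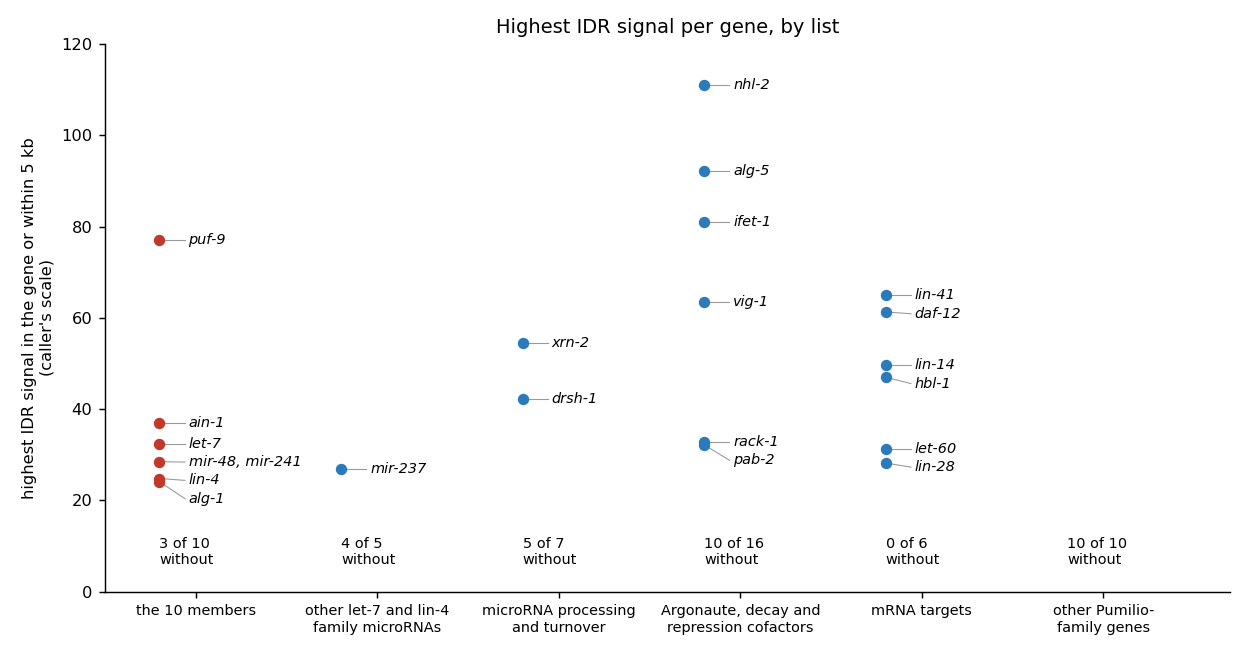
Highest IDR signal (vertical axis, the caller's scale) in the gene or within 5 kb, one point per value and labelled by gene, for the 10 genes (left) and 5 lists of related genes. The number without an IDR summit stands at the foot of each list. All 6 listed mRNA targets have one, and none of the 10 other Pumilio-family genes has. The lists were chosen with earlier results of these data known.

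Related genes were counted with the same 5 kb window. The lists were chosen with earlier results of these data known, so their counts are descriptions. Of the 5 lists together, 15 of 44 genes had an IDR summit, where the share was 14.4% of all protein-coding genes and 22.6% of all miRNA genes. The 6 listed mRNA targets of the microRNAs had one at 6 of 6, against 14.4% of protein-coding genes. They were the timing regulators lin-14 (49.6), lin-28 (28.2), hbl-1 (47.0), lin-41 (64.9) and daf-12 (61.3) and the Ras gene let-60 (31.3), with the highest signal in brackets. On X, where lin-14, hbl-1 and daf-12 lie, the share was 21.2% of protein-coding genes. At hbl-1, lin-41 and let-60 the nearest protein-coding 5′ end to that peak was of another gene, acp-5, cbl-1 and ZK792.12. The shares of 14.4% and 21.2% were not matched for gene length, and a longer gene has a wider window.

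Of the other let-7 and lin-4 family microRNAs, 1 of 5 had an IDR summit, which is near the 22.6% of all miRNA genes. It was mir-237, a lin-4 family microRNA, whose peak (26.8) lay 4940 bp downstream, nearest to hil-3. Of the microRNA processing and turnover genes, 2 of 7 had one, against 14.4% of protein-coding genes. They were the Drosha gene drsh-1 (42.3, nearest to cox-5B) and the exonuclease gene xrn-2 (54.6, nearest to bop-1). Of the Argonaute, decay and repression cofactors, 6 of 16 had one, against the same 14.4%: the Argonaute gene alg-5 (92.2), the TRIM-NHL gene nhl-2 (111), the eIF4E-binding factor gene ifet-1 (81.0), the RISC component gene vig-1 (63.4), the ribosome-associated scaffold gene rack-1 (32.8) and the poly(A)-binding protein gene pab-2 (32.2). For nhl-2, alg-5 and ifet-1 the nearest protein-coding 5′ end was of tag-340, his-68 and rps-3A. None of 10 other Pumilio-family genes had one, a count that a share of 14.4% does not set apart.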

How the data were processed

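The authors deposited peak lists for both replicates, for the pooled data and after IDR thresholding. Per the file headers, the relaxed lists were made from alignments with a control, as input for IDR, and the thresholded list from the pooled and replicate lists. The deposited signal of each interval is the caller's enrichment value. The deposited lists also give the −log10 of a q-value, which was not used for ranking, and the summit, counted from where the interval begins. Which aligner, which peak caller and which IDR cutoff were used is not given in the sources used here. The control library was not analysed here. Only the ce11 lists were used, with 1-based positions.

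Genes and transcripts came from Ensembl release 115 (WBcel235), and mature microRNAs and genome sequence from RefSeq. All 10 genes were found. A summit was given to every gene containing it or within 5 kb, so genes can share a peak. An IDR peak took the overlapping interval (at least 1 bp) of highest signal in each relaxed list. Distances are to the annotated gene, and nearest 5′ ends are over transcripts. Sequence words were counted with overlaps. Scripts used Python 3.11.15 and matplotlib 3.10.9 and were tested on simulated intervals.

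With 1 group, 2 replicates and no counts, no test was run: member counts stand beside the share of all genes or peaks. The genes and lists were chosen with earlier results of these data known. Named genes are the 10 members, the gene of nearest 5′ end and each listed gene with an IDR summit; ntl-1 and ntl-2 matched no gene by symbol. Sequences are printed for the microRNAs and the strongest peak of 4 loci. Alternatives were the window, any overlap, other lists and thresholds, each replicate alone and the nearest 5′ end.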

Additional observations from a re-analysis of the deposited data

How the results depend on the processing

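The count of 7 genes with an IDR summit and of 8 different summits depended on the window and the list. The shares of all genes, 14.4% of protein-coding and 22.6% of miRNA genes in the main setting, moved too. With a 1 kb window there were 4 genes and 4 summits, and the shares were 6.44% and 8.43%. Among the 679 IDR peaks of highest signal 2 genes (ain-1 and puf-9) and 2 summits were left, with shares of 7.62% and 9.2%. With only summits whose nearest 5′ end of any gene was the member's own, there were 2 genes (alg-1 and ain-1) and 3 summits. Of the related genes there were then 4 in place of 15. Under that rule the shares of all protein-coding and miRNA genes were 3.51% and 4.21%. Leaving out a replicate gave 4 to 7 genes, 4 to 8 summits and 15 to 16 related genes. The shares were then 14.2 to 15.2% of protein-coding and 19.2 to 25.7% of miRNA genes. The 4 genes and 4 summits are those without replicate 1, where lin-4, mir-48 and mir-241 were lost. Windows of 2 and 10 kb, any overlap in place of the summit and the top pooled intervals gave 5 to 8 genes, with ain-2 added in the pooled list. Across these settings the shares were 8.63 to 22.6% of protein-coding and 17.2 to 37.2% of miRNA genes. The count of peaks with a homeodomain core was 1 over the whole peak and 0 within 50 bp and within 100 bp of the summit. The count top in both replicates was 3 under either overlap rule. Summits per gene moved in 31 of 90 comparisons of a gene under an alternative. The settings for the related genes, for summits per gene and for the GAGAGA count near the summit were added after seeing the data. The cause was not tested. Depth is unknown, so its limit on weak peaks cannot be given. No paired analysis was possible because there was 1 group.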
